A study of Homo sapiens with 6 samples.

Results

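Collagen and laminin genes are described here, in 6 RNA-seq libraries of human immortalized ventricular cardiomyocytes. The genes are all rows whose symbol is a collagen chain (COL, a number, A and a number) or a laminin chain (LAMA, LAMB or LAMC and a number), with 10 or more estimated counts in at least 3 of the 6 libraries. Of 58884 genes in the deposited table, 56 carried such a name, 44 collagens and 12 laminins, and 37 met the count rule, 26 collagens and 11 laminins. Among the 19 names left out, COL16A1, COL4A4 and COL23A1 came closest, with at most 11, 14 and 13.7 counts in any library. COL9A2 (5 to 16 counts) and COL8A2 (9 to 29 counts) met the rule at low counts. The NC group held 3 libraries of cells transfected with negative control siRNA, and the SiCIRBP group held 3 libraries of cells transfected with siRNA against CIRBP, a cold-inducible RNA-binding protein. No drug was named for either group. The labels call the cells T0519 and the study's text calls them AC16, both human immortalized ventricular lines. The labels number the libraries of each group 1 to 3 without saying whether they came from separate cultures, so the p-values below measure only the spread between these libraries. In bulk RNA, fewer cells of a type and less RNA per cell cannot be told apart.

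Collagen chains wind into helical trimers that assemble outside the cell into fibrils, networks or beaded filaments, and laminins are cross-shaped trimers of an alpha, a beta and a gamma chain. Laminin and collagen IV networks, joined by nidogen and perlecan, form the basement membrane that wraps each cardiomyocyte, while collagens I, III and V build the interstitial fibrils of the heart, which cardiac fibroblasts produce for the most part. Collagen VI lies between the basement membrane and the fibrils, and collagens VII and XVII anchor epithelia to the tissue beneath them.

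The study left NC_1 and SiCIRBP_2 out of its own test because they stood apart from their groups, so differential expression was tested over its 4 libraries (NC_2, NC_3, SiCIRBP_1 and SiCIRBP_3) and again over all 6. A gene rose or fell when its edgeR adjusted p over the 4 libraries was under 0.05, and values per library are normalized counts scaled to library size (CPM), listed for replicates 1, 2 and 3. Library totals ran from 25726259 to 29919566 estimated counts. Across genes, log2 CPM correlated at 0.993 to 0.997 within NC, at 0.991 between SiCIRBP_1 and SiCIRBP_3, and at 0.960 to 0.975 between SiCIRBP_2 and any other library. NC_1 lay as close to SiCIRBP_1 (0.991) as SiCIRBP_3 did. CIRBP itself had 86.3, 85.7 and 90.9 CPM in the NC libraries and 54.7, 24.3 and 46.2 CPM in the SiCIRBP libraries, a log2 fold change of -0.81 over the 4 libraries (edgeR, adjusted p = 0.00828) and -1.07 over all 6 (edgeR, adjusted p = 0.103). Of 13 cardiomyocyte markers, 10 were under 1 CPM in every library. Among them were TNNT2, MYH6, MYH7 and TTN, so that these contractile genes of the labelled cell type were near 0. Of the other markers, ACTN2 had 14.0 to 22.2 CPM, NKX2-5 had 3.03 to 9.48 CPM and TNNI3 had 0.0328 to 1.07 CPM. The summed level of 9 fibroblast markers was 3929 to 5211 CPM, most of it vimentin. LUM, POSTN and TCF21 of that list were under 1 CPM in every library. SiCIRBP_2 also differed in a list of 15 interferon-stimulated genes, whose median log2 difference from the NC mean was 3.70 there, against -0.91 in SiCIRBP_1 and 1.07 in SiCIRBP_3, and in the smooth muscle marker TAGLN, at 862 CPM there and between 91.9 and 213 CPM elsewhere. The part of these differences in the results below was not tested.

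Promoter windows of 300 bases (250 before and 50 from the annotated start) were found in RefSeq (GRCh38.p14) for 25 of the 37 genes. Shown here are the stretches before the start of genes that the results turn on, namely the collagen IV pair and LAMC1, which fell, and COL7A1 and COL17A1, which rose most. COL4A1 and COL4A2 are divergent neighbours on chromosome 13, with RefSeq starts 127 bases apart, and the bases between both starts belong to both windows. Capitals mark the letters CCAAT and GGGCGG on either strand.
COL4A1 and COL4A2, chr13:110307158-110307283, plus strand, 126 bases: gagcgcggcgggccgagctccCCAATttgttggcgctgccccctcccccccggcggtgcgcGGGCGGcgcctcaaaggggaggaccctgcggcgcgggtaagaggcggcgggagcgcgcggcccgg
LAMC1, chr1:183023170-183023419, plus strand, 250 bases: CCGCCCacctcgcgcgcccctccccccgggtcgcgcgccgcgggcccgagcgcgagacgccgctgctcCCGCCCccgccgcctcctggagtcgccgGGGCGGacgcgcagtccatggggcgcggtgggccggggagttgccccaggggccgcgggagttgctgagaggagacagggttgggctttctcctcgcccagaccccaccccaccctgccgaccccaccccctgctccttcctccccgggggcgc
COL7A1, chr3:48595330-48595579, minus strand, 250 bases: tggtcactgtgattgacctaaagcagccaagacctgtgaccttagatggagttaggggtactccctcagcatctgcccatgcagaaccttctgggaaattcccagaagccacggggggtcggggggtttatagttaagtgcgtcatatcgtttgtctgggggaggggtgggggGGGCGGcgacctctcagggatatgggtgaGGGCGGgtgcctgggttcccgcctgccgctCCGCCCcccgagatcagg
COL17A1, chr10:104085881-104086130, minus strand, 250 bases: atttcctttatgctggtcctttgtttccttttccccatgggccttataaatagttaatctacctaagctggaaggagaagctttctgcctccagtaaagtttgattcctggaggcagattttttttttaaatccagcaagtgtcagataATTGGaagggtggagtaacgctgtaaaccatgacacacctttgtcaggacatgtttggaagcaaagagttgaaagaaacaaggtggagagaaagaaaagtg
The stretch between the collagen IV starts was 80.2% G and C and held 1 CCAAT and 1 GGGCGG. The LAMC1 and COL7A1 stretches were 79.6% and 60.8% G and C with 3 GGGCGG each, and COL17A1 was 40.4% G and C with 1 CCAAT and no GGGCGG. Over the full windows, GGGCGG stood in 18 of the 25 collagen and laminin promoters, against 44.6% of 27305 RefSeq promoters, and CCAAT in 3 of 25, against 35.7%. The CCAAT and the GGGCGG between the collagen IV starts lie in both windows, so each is counted for COL4A1 and for COL4A2. TATAAA was present in 4 of 25 (12% of all promoters) and TGANTCA in 1 of 25, LAMA3 (7.76% of all promoters). These are letter matches and not measured sites. In GENCODE 29, which was used for gene positions, COL4A1, COL4A2 and COL17A1 start further upstream than in RefSeq, so part of those stretches is transcribed under that annotation.

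Of the 37 genes, 36 passed the filter on low counts over the 4 libraries. After CIRBP knockdown 5 of the 36 rose and 9 fell, where 9.62% of all 15421 genes tested rose and 9.76% fell. For the collagens and laminins these counts are 13.9% and 25%. All 5 that rose were collagens (COL1A1, COL5A1, COL7A1, COL13A1 and COL17A1), and the 9 that fell were 6 collagens (COL4A1, COL4A2, COL5A2, COL14A1, COL26A1 and COL27A1) and 3 laminins (LAMA1, LAMA5 and LAMC1). Changes of at least 2-fold were found for COL17A1 and COL7A1 upward (1.82% of all genes) and for COL26A1 and LAMA1 downward (1.8% of all genes). The median log2 fold change was 0.17 over 26 collagens (quartiles -0.42 and 0.48) and -0.28 over 10 laminins (-0.38 and 0.15). It was -0.0020 over all genes tested (-0.30 and 0.29). Over all 6 libraries the collagen and laminin medians were 0.14 and -0.41. Without SiCIRBP_3 they were 0.0034 and -0.31 from the 4 libraries, and -0.069 and -0.47 from the 6, so the collagen median depended on that library.

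None of these calls held in edgeR over all 6 libraries, where none of 36 genes rose or fell and 0.0% of 15217 genes did. There, 18 of the 36 had an unadjusted p under 0.05 (3603 of 15217 over all genes), and the smallest adjusted p among them was 0.0869 (edgeR). DESeq2 over the same 6 libraries called 4 genes higher (4.48% of all genes) and 7 lower (5.04%). These were COL1A2, COL7A1, COL13A1 and COL17A1, and COL4A1, COL4A2, COL5A2, COL14A1, COL26A1, COL27A1 and LAMA5, so 10 of the 14 genes above were among them. Every SiCIRBP library lay above every NC library for 7 of the 36 genes and below for 13, against 16.2% and 16.6% of all genes, so that the groups were apart for 20 of 36 genes and for 32.8% of all genes. Among the 14 genes that rose or fell over the 4 libraries, the groups overlapped over all 6 for COL1A1, COL5A1 and LAMA1. They were apart for the other 11, and for 69.6% of the 2960 genes that were called over the 4 libraries and tested over 6. The calls rest on 4 of the same 6 libraries, so this count is a description only. In the fit of 4 libraries, leaving out NC_2 or NC_3 also left none of the 36 genes called by edgeR, with 15 at an unadjusted p under 0.05 each time. Over all genes, 1.04% and 0.403% were called in these fits, and 19.8% (3193 of 16138) and 16.9% (2676 of 15869) had an unadjusted p under 0.05.

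**Figure D1:**
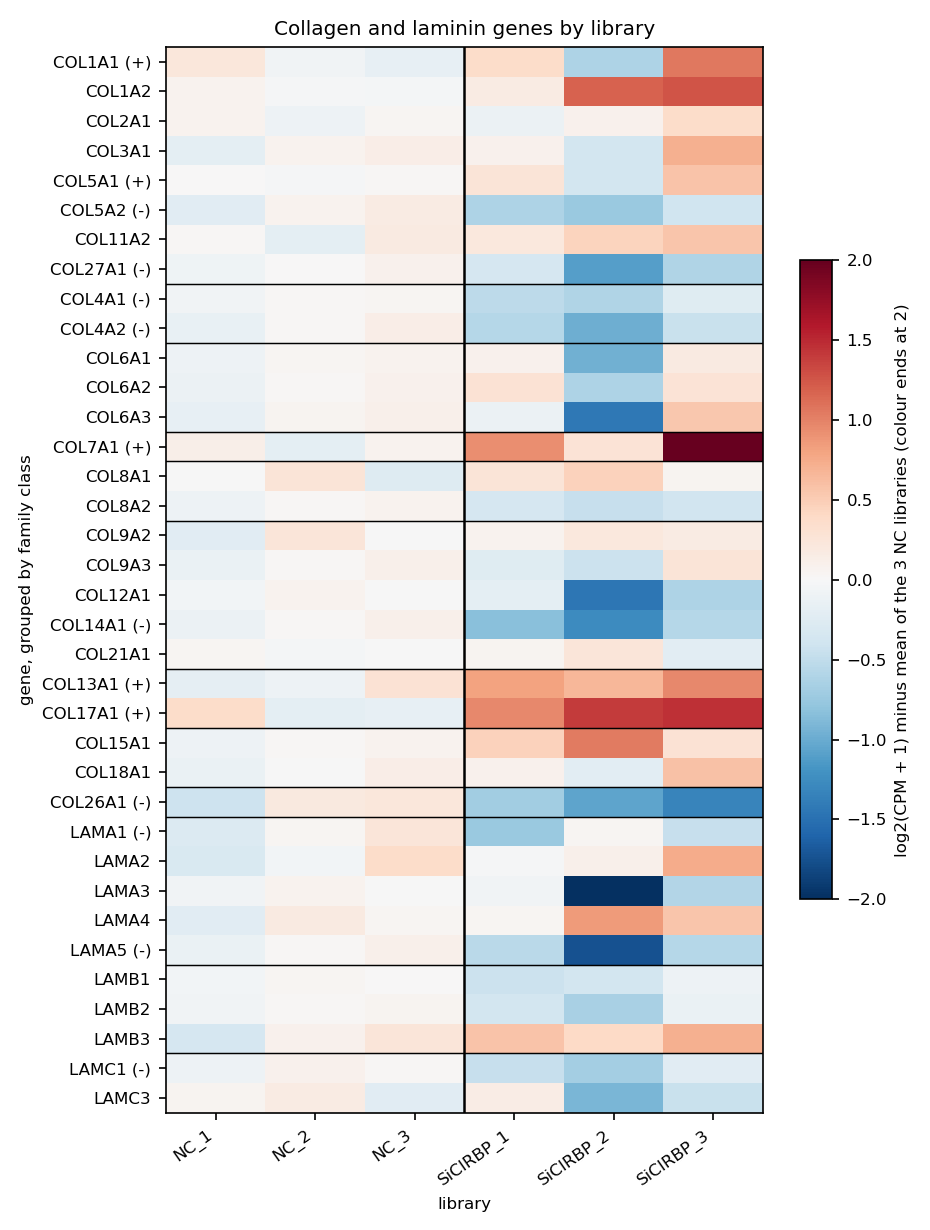
Each cell gives the log2(CPM + 1) of 1 of the 36 tested collagen and laminin genes in a library minus the mean of the 3 NC libraries, with genes in rows grouped by family class, libraries in columns, and (+) or (-) after genes that rose or fell over the 4 libraries. COL4A1, COL4A2, COL5A2, COL14A1 and LAMC1 are blue in every SiCIRBP library and COL13A1 and COL17A1 red in every one, whereas COL6A1, COL6A2, COL1A1 and COL5A1 are blue in SiCIRBP_2 and red in the other SiCIRBP libraries.

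**Figure D2:**
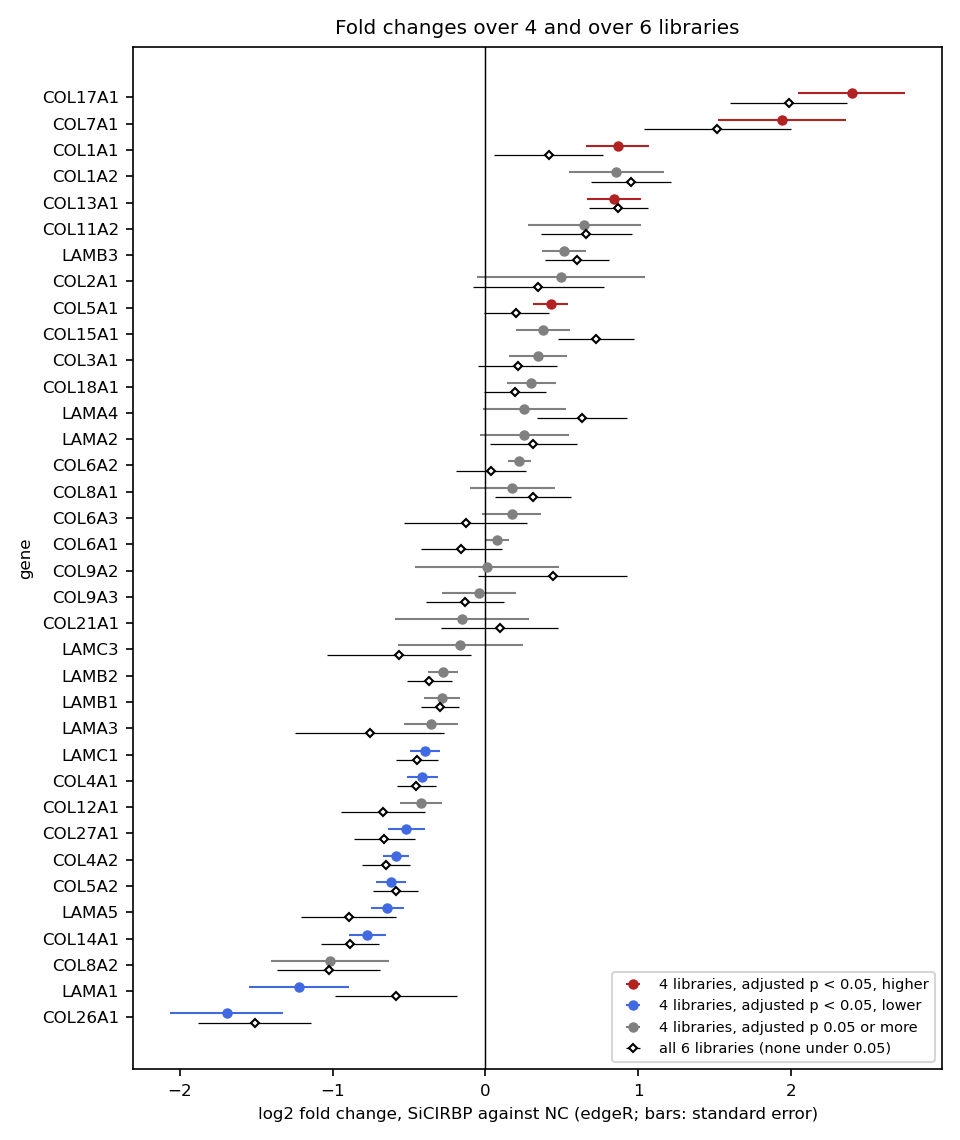
Points are edgeR log2 fold changes of SiCIRBP against NC with standard errors, filled circles for the 4 libraries and open diamonds for all 6. COL17A1 (2.40) and COL26A1 (-1.69) stand at the ends, and the standard errors of COL6A1, COL6A3 and LAMA3 are wider over 6 libraries than over 4.

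Basement membrane collagen IV fell. The chains COL4A1 and COL4A2 join as alpha1 alpha1 alpha2 trimers and were the only collagen IV genes that met the count rule, COL4A3 to COL4A6 having at most 14 counts in any library. COL4A2 had 843, 947 and 1019 CPM in the NC libraries and 629, 475 and 683 CPM in the SiCIRBP libraries. The lowest NC library was above the highest SiCIRBP library, and the log2 fold change was -0.58 ± 0.084 (SE; edgeR, adjusted p = 0.00971), a level 1.5-fold lower. COL4A1 had 529.6, 567 and 574 CPM in the NC libraries and 388, 364 and 469 CPM in the SiCIRBP libraries, again with no overlap between groups, and its log2 fold change was -0.41 ± 0.10 (SE; edgeR, adjusted p = 0.0382). Over all 6 libraries the log2 fold changes were -0.65 for COL4A2 and -0.45 for COL4A1, with edgeR adjusted p of 0.10 and 0.117. Their summed level per transcript length was 391, 426 and 464 TPM in the NC libraries and 289.5, 223 and 324 TPM in the SiCIRBP libraries, a mean log2 difference of -0.63 (exact permutation test, two-sided, p = 0.1, the smallest that 3 against 3 libraries allow). In GENCODE 29 the spans of both genes, chr13:110148963-110307233 for COL4A1 (minus strand, 52 exons in the longest coding transcript) and chr13:110305812-110513209 for COL4A2 (plus strand, 48 exons), overlap by 1422 bases, and reads there cannot be told apart where the library is not stranded, which is not stated.

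Of 10 laminin chains tested, LAMC1, LAMA5 and LAMA1 fell and none rose, where 9.76% of all genes fell and 9.62% rose. LAMC1, the gamma chain shared by most laminins, is at chr1:183023460-183145592 and had 349.8, 398 and 383 CPM in the NC libraries and 273, 236 and 321 CPM in the SiCIRBP libraries. Its groups did not overlap, and its log2 fold change was -0.39 ± 0.097 (SE; edgeR, adjusted p = 0.0361) and -0.45 ± 0.14 over all 6 libraries (edgeR, adjusted p = 0.129). LAMA5, an alpha chain of mature basement membranes, had 25.5, 28.6 and 30.0 CPM in the NC libraries and 19, 7.65 and 18.5 CPM in the SiCIRBP libraries, SiCIRBP_2 being lowest. The log2 fold change was -0.64 ± 0.11 (SE; edgeR, adjusted p = 0.0143) and -0.90 ± 0.31 over all 6 libraries (edgeR, adjusted p = 0.153). LAMA5 overlaps the proteasome receptor gene ADRM1 on the opposite strand by 908 bases, and ADRM1 averaged 323 CPM against 21.5 CPM for LAMA5 in reads per gene, not per length, so the assignment of LAMA5 reads in the overlap is uncertain. On TPM, where limma was used in place of counts, LAMA5 had a log2 fold change of -0.28 (limma, adjusted p = 0.246). LAMA1, an alpha chain best known from the embryo, was low, at 1.51, 2.13 and 2.59 CPM in the NC libraries and 0.821, 2.14 and 1.21 CPM in the SiCIRBP libraries (24.0 to 79 counts per library). SiCIRBP_2 lay within the NC range, and the log2 fold change was -1.22 ± 0.33 (SE; edgeR, adjusted p = 0.0448) and -0.58 ± 0.40 over all 6 libraries (edgeR, adjusted p = 0.386).

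None of the other laminins tested passed the threshold. LAMB1 had 122, 130.1 and 127 CPM in the NC libraries and 93.7, 97.8 and 117 CPM in the SiCIRBP libraries. LAMB2, a beta chain of mature muscle basement membranes, had 180.2, 192 and 195 CPM in the NC libraries and 147, 121 and 173 CPM in the SiCIRBP libraries. Both had every SiCIRBP library below every NC library, with log2 fold changes of -0.28 (edgeR, adjusted p = 0.136) and -0.28 (edgeR, adjusted p = 0.0918). The LAMB1 span shares 7932 bases with DLD on the opposite strand, a gene with 65.1% of the reads of LAMB1. LAMA3 and LAMB3 are chains of epithelial laminins. LAMB3 had 6.34, 8.85 and 9.96 CPM in the NC libraries and 12.8, 11.2 and 14.1 CPM in the SiCIRBP libraries, all SiCIRBP libraries above all NC libraries, with a log2 fold change of 0.51 (edgeR, adjusted p = 0.0508). LAMA3 had 31.8, 35.4 and 33.4 CPM in the NC libraries and 31.8, 5.79 and 21.9 CPM in the SiCIRBP libraries, the lowest value being that of SiCIRBP_2, with -0.36 (edgeR, adjusted p = 0.197). LAMA2, LAMA4 and LAMC3 lay between 0.544 and 14.5 CPM with overlapping groups. Summed over 11 laminins, the level was 327, 357 and 375 TPM in the NC libraries and 270.0, 265 and 307 TPM in the SiCIRBP libraries, with groups apart and a mean log2 difference of -0.33 (exact permutation test, two-sided, p = 0.1, the smallest possible). Without LAMA2, a choice made after seeing the data, it was 315, 336 and 348 TPM in the NC libraries and 264, 203 and 292 TPM in the SiCIRBP libraries and -0.41 (exact permutation test, p = 0.1).

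**Figure D3:**
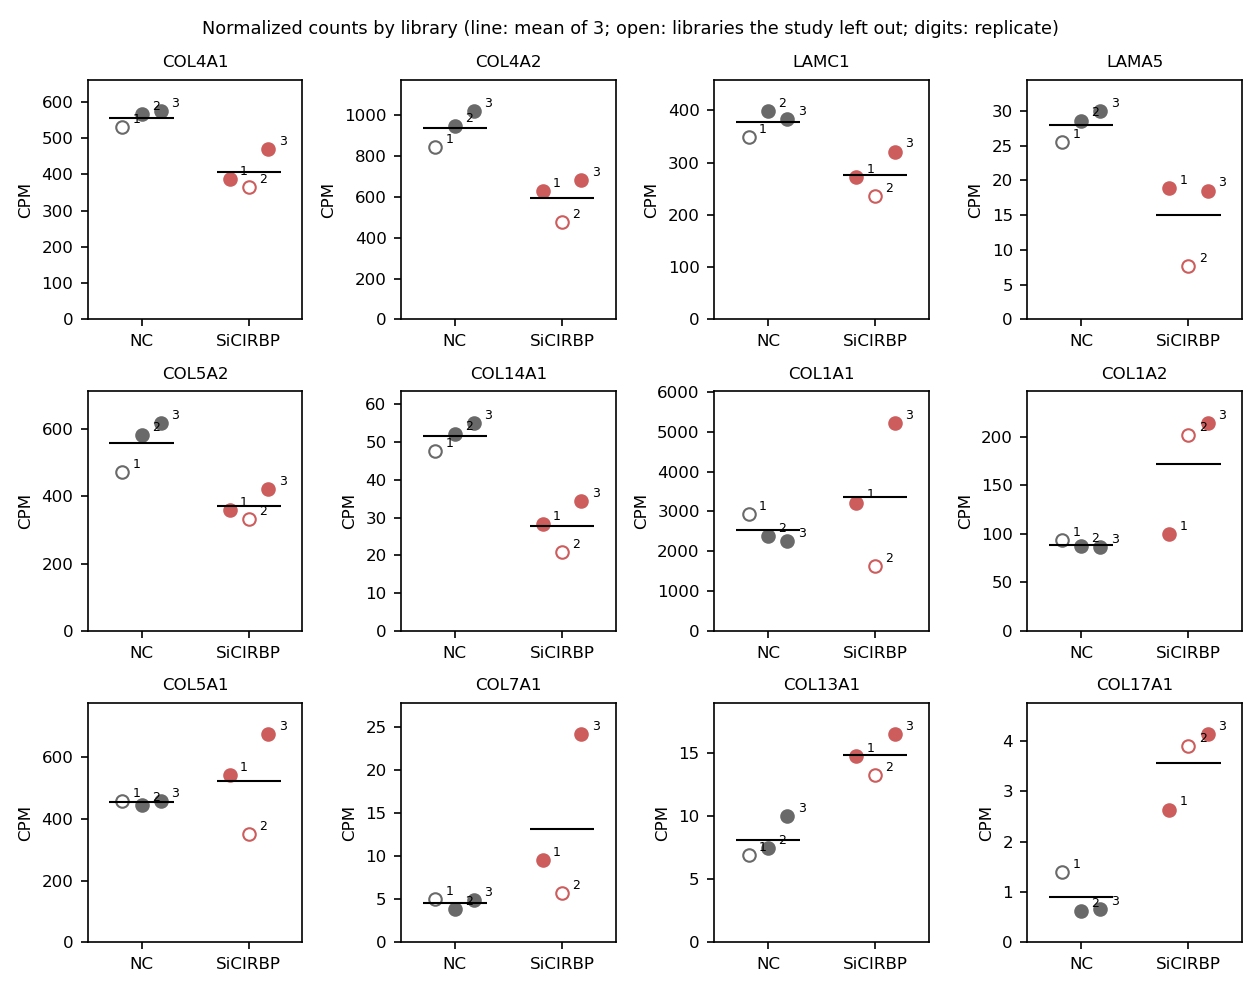
Normalized counts (CPM, linear axes from 0) of 12 genes by library, NC in grey and SiCIRBP in red, with a line at the mean of 3 libraries and open points for NC_1 and SiCIRBP_2, which the study left out. COL4A1, COL4A2, LAMC1, LAMA5, COL5A2 and COL14A1 have every SiCIRBP point below every NC point. COL1A1 and COL5A1 have SiCIRBP_2 below and the other SiCIRBP points above all NC points.

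Of 8 fibrillar collagens 2 rose (COL1A1 and COL5A1) and 2 fell (COL5A2 and COL27A1), where 9.62% of all genes rose and 9.76% fell. Both that rose had overlapping groups over all 6 libraries. COL1A1, the alpha1 chain of collagen I, is at chr17:50183289-50201632 and had the highest mean TPM of the 37 genes, 686 over 6 libraries. It had 2929, 2392 and 2246 CPM in the NC libraries and 3223, 1628 and 5229 CPM in the SiCIRBP libraries. SiCIRBP_3 was the highest and SiCIRBP_2 the lowest of all 6 libraries. The log2 fold change was 0.87 ± 0.21 (SE; edgeR, adjusted p = 0.0332), a level 1.82-fold higher, and 0.41 ± 0.36 over all 6 libraries (edgeR, adjusted p = 0.491). COL1A2, the partner alpha2 chain, had 93.1, 87.6 and 86 CPM in the NC libraries and 99.8, 202 and 214 CPM in the SiCIRBP libraries. All SiCIRBP libraries exceeded all NC libraries, SiCIRBP_1 by the least, and the log2 fold change was 0.86 ± 0.31 (SE; edgeR, adjusted p = 0.0971). Over 6 libraries COL1A2 was 0.95 ± 0.26 (edgeR, adjusted p = 0.114, DESeq2, adjusted p = 0.00967).

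The chains of collagen V, which regulates the width of collagen I fibrils, moved in opposite directions. COL5A1 had 458, 445 and 459 CPM in the NC libraries and 541, 352 and 675 CPM in the SiCIRBP libraries, again with SiCIRBP_2 below the NC libraries and the others above them, and its log2 fold change was 0.43 ± 0.11 (SE; edgeR, adjusted p = 0.0431) and 0.20 ± 0.21 over all 6 libraries (edgeR, adjusted p = 0.575). COL5A2 had 472, 582 and 619 CPM in the NC libraries and 359, 332 and 422 CPM in the SiCIRBP libraries, with no overlap between groups, and its log2 fold change was -0.62 ± 0.099 (SE; edgeR, adjusted p = 0.0123) and -0.59 ± 0.15 over all 6 libraries (edgeR, adjusted p = 0.103). COL5A2 lies tail to tail with COL3A1 on chromosome 2, 19149 bases apart. COL3A1, the chain of collagen III, had 72.2, 86.3 and 90.4 CPM in the NC libraries and 87.7, 63.7 and 137 CPM in the SiCIRBP libraries, and its log2 fold change was 0.34 ± 0.19 (SE; edgeR, adjusted p = 0.242). COL27A1, a collagen of cartilage, fell, with 45.7, 48.8 and 51.9 CPM in the NC libraries and 38.5, 22.3 and 31.8 CPM in the SiCIRBP libraries, no overlap between groups, and a log2 fold change of -0.52 (edgeR, adjusted p = 0.0312). COL2A1 and COL11A2 were at most 2.28 CPM in every library and did not pass the test. Of the fibroblast markers, 1 of 6 tested (PDGFRA) fell and none rose, beside 9.76% and 9.62% of all genes. Their summed level was 3929 to 4324 CPM in NC and 3942 to 5211 CPM in SiCIRBP, with LUM, POSTN and TCF21 under 1 CPM in every library. Their part in the result was not tested.

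Collagen VI chains did not pass the test in either direction over the 4 libraries or over all 6, though COL6A1, COL6A2 and COL6A3 ranked just below COL1A1 in mean TPM. COL6A1 had 1618, 1787 and 1826 CPM in the NC libraries and 1839.6, 892 and 1963 CPM in the SiCIRBP libraries. COL6A2 had 517, 569 and 596 CPM in the NC libraries and 684, 365 and 673 CPM in the SiCIRBP libraries. COL6A3 had 1426, 1657 and 1715 CPM in the NC libraries and 1474, 593 and 2323 CPM in the SiCIRBP libraries. In each, SiCIRBP_2 had the lowest value of the 6 libraries, and over the 4 libraries the log2 fold changes were 0.074, 0.22 and 0.17 with edgeR adjusted p of 0.533, 0.0784 and 0.561. Over all 6 libraries they were -0.16, 0.035 and -0.13, so the sign of COL6A1 and COL6A3 depended on the libraries used. When a SiCIRBP library was left out of the 4, the log2 fold change of COL6A3 was 0.46 without SiCIRBP_1 and -0.20 without SiCIRBP_3. That of COL6A2 was 0.20 and 0.23. In these fits the lone SiCIRBP library is assumed to vary like the NC libraries, so only the log2 fold changes are given.

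COL17A1 and COL7A1 had the largest log2 fold changes upward of the 36 genes over the 4 libraries, both at low levels. COL17A1, a transmembrane collagen of hemidesmosomes at chr10:104031286-104085957, was low, with 1.4, 0.621 and 0.655 CPM in the NC libraries and 2.63, 3.89 and 4.13 CPM in the SiCIRBP libraries and 16 to 116 counts per library. Every SiCIRBP library was above every NC library, and the log2 fold change was 2.40 ± 0.35 (SE; edgeR, adjusted p = 0.0102), a level 5.26-fold higher, and 1.98 ± 0.38 over all 6 libraries (edgeR, adjusted p = 0.0869). COL7A1, which forms the anchoring fibrils under epithelia, is at chr3:48564073-48595267 (118 exons) and had 5.04, 3.88 and 4.88 CPM in the NC libraries and 9.61, 5.75 and 24.2 CPM in the SiCIRBP libraries. Groups did not overlap, but SiCIRBP_2 was close to the NC libraries and SiCIRBP_3 stood far above the rest. Its log2 fold change was 1.94 ± 0.42 (SE; edgeR, adjusted p = 0.0256), a level 3.84-fold higher, and 1.52 ± 0.48 over all 6 libraries (edgeR, adjusted p = 0.132). COL13A1, a transmembrane collagen of the neuromuscular junction and of cell adhesions, had 6.93, 7.45 and 10.0 CPM in the NC libraries and 14.8, 13.2 and 16.5 CPM in the SiCIRBP libraries, groups apart, and its log2 fold change was 0.84 ± 0.18 (SE; edgeR, adjusted p = 0.0239) and 0.87 ± 0.19 over all 6 libraries (edgeR, adjusted p = 0.0965). Of 6 epithelial markers 3 were tested and KRT14 and KRT8 rose, beside 9.62% of all genes. The other one tested, KRT18, made up most of the summed level of this list and did not pass the test. It had 1121 to 1431 CPM in NC and 976 to 1296 CPM in SiCIRBP. Its log2 fold change was 0.0027 (edgeR, adjusted p = 0.988) and -0.18 over all 6 libraries (edgeR, adjusted p = 0.464). KRT14 had 1.05, 0.698 and 0.524 CPM in the NC libraries and 2.81, 4.0 and 2.28 CPM in the SiCIRBP libraries and KRT8 had 14.7, 14.3 and 15.3 CPM in the NC libraries and 20.3, 34.9 and 21.8 CPM in the SiCIRBP libraries, while CDH1, EPCAM and KRT5 were under 1 CPM in every library and the summed level of the list was 1137 to 1447 CPM in NC and 1015 to 1319.9 CPM in SiCIRBP. The part of these epithelial markers in the rise of these collagens was not tested. Other marker lists also held genes that rose, beside 9.62% of all genes. These were 1 of 3 endothelial markers tested (VWF, under 1 CPM in every library), 1 of 2 leukocyte markers (CD68) and 1 of 5 smooth muscle markers (SMTN). In the smooth muscle list 1 of 5 (TAGLN) fell, and of 3 cardiomyocyte markers tested 1 (NKX2-5) fell, beside 9.76% of all genes.

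Among collagens that attach to fibrils (FACIT), COL14A1 fell, with 47.6, 52.2 and 55.2 CPM in the NC libraries and 28.4, 20.9 and 34.5 CPM in the SiCIRBP libraries. Groups were apart, and the log2 fold change was -0.77 ± 0.12 (SE; edgeR, adjusted p = 0.0121) and -0.89 ± 0.19 over all 6 libraries (edgeR, adjusted p = 0.0913). COL12A1, its closest relative, had 195, 213 and 201 CPM in the NC libraries and 177, 73.7 and 133 CPM in the SiCIRBP libraries, the lowest in SiCIRBP_2, and its log2 fold change was -0.42 ± 0.14 (SE; edgeR, adjusted p = 0.0748). COL9A2, COL9A3 and COL21A1 did not pass the test and ranged from 0.175 to 5.98 CPM. COL26A1 had 2.42, 4.23 and 4.33 CPM in the NC libraries and 1.81, 1.2 and 0.819 CPM in the SiCIRBP libraries (23 to 132 counts), and its log2 fold change was -1.69 ± 0.37 (SE; edgeR, adjusted p = 0.0263), a level 3.23-fold lower, and -1.51 ± 0.37 over all 6 libraries (edgeR, adjusted p = 0.102). The network-forming COL8A2, at 9 to 29 counts, had 0.735, 0.892 and 0.95 CPM in the NC libraries and 0.479, 0.35 and 0.427 CPM in the SiCIRBP libraries and a log2 fold change of -1.02 (edgeR, adjusted p = 0.108), more than 2-fold but short of the threshold. COL8A1 and the multiplexins COL15A1 and COL18A1, which lie in or near basement membranes, did not pass the test. COL8A1 had 3.64, 4.58 and 2.88 CPM in the NC libraries and 4.55, 5.4 and 3.84 CPM in the SiCIRBP libraries, with overlap, and COL15A1 had 4.55, 5.08 and 5.28 CPM in the NC libraries and 7.19, 11.2 and 6.26 CPM in the SiCIRBP libraries, all SiCIRBP libraries above all NC libraries, with a log2 fold change of 0.38 (edgeR, adjusted p = 0.179). COL18A1 had the highest TPM of these, at 49 to 103, and shares 20149 bases with SLC19A1 on the opposite strand.

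The summed level of all 37 genes, per transcript length, did not separate the groups. It was 2884, 3008 and 3148 TPM in the NC libraries and 2889, 1608 and 3638 TPM in the SiCIRBP libraries, or 3013 ± 132 TPM (SD, n = 3) in NC and 2711 ± 1027 TPM (SD, n = 3) in SiCIRBP. SiCIRBP_2 had the lowest and SiCIRBP_3 the highest sum. The mean log2 difference was -0.23 (exact permutation test, two-sided, p = 0.8), and without COL1A1, which supplied 18.6% to 31.8% of the sum, it was -0.32 (exact permutation test, p = 0.4). Collagen VI chains summed to 1087, 1209.6 and 1284 TPM in the NC libraries and 1207, 527 and 1376 TPM in the SiCIRBP libraries (mean log2 difference -0.32, exact permutation test, p = 0.8).

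SiCIRBP_2 departed from its group in these genes more often downward than upward. In log2(CPM + 1) it was at least 1 below the mean of SiCIRBP_1 and SiCIRBP_3 for 7 of 36 genes and at least 1 above for none, against 3.05% and 3.04% of 15217 genes. The 7 were LAMA3 (-2.01), COL6A3 (-1.64), COL1A1 (-1.33), COL7A1 (-1.28), LAMA5 (-1.19), COL6A1 (-1.09) and COL12A1 (-1.04). In 9 of the 36 genes SiCIRBP_2 was higher than that mean, against 7482 of 15217 genes. It was higher by 0.66 for COL15A1, 0.64 for LAMA1, 0.56 for LAMA4, 0.46 for COL1A2, 0.33 for COL21A1 and 0.30 for COL8A1, and by less than these for COL17A1, COL9A2 and COL11A2. The median SD between the 3 libraries on this scale was 0.13 in NC and 0.37 in SiCIRBP for the 36 genes, and 0.12 and 0.23 for all genes. NC_1 was at least 1 away from the mean of NC_2 and NC_3 for none of the 36 genes and for 43 of all 15217 genes. Its median difference from them was -0.16 for the 36 genes and 0.00097 for all genes.

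Chains that join in one trimer were set side by side as TPM ratios, and 6 pairs were compared by exact permutation tests with p-values adjusted over the 6. COL5A1/COL5A2 was 0.822, 0.638 and 0.627 in the NC libraries and 1.3, 0.895 and 1.34 in the SiCIRBP libraries. All SiCIRBP ratios were above all NC ratios, a mean log2 difference of 0.75 (two-sided exact permutation test, p = 0.1, adjusted p = 0.2). LAMB1/LAMC1 was 0.444, 0.392 and 0.394 in the NC libraries and 0.494, 0.607 and 0.512 in the SiCIRBP libraries, also higher in every SiCIRBP library, with a mean log2 difference of 0.39 on TPM and 0.16 on counts (exact permutation test, p = 0.1, adjusted p = 0.2). COL6A1/COL6A2 was 2.77, 2.74 and 2.74 in the NC libraries and 2.44, 2.27 and 2.73 in the SiCIRBP libraries, lower in every SiCIRBP library by a mean log2 of -0.15 (exact permutation test, p = 0.1, adjusted p = 0.2). COL4A1/COL4A2 was 0.594, 0.567 and 0.523 in the NC libraries and 0.58, 0.723 and 0.64 in the SiCIRBP libraries, with overlap (log2 difference 0.20, exact permutation test, p = 0.2, adjusted p = 0.3). COL1A1/COL1A2 was 23.7, 23.4 and 23.1 in the NC libraries and 25.9, 6.19 and 19.3 in the SiCIRBP libraries. The ratio of SiCIRBP_2 was far below the other 5 (log2 difference -0.68, exact permutation test, p = 0.4, adjusted p = 0.48). COL6A3/COL6A1 was 0.336, 0.353 and 0.362 in the NC libraries and 0.307, 0.255 and 0.438 in the SiCIRBP libraries (log2 difference -0.11, exact permutation test, p = 0.7, adjusted p = 0.7). No pair passed after adjustment, and with 3 libraries a group the unadjusted p cannot go below 0.1.

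Enzymes and chaperones that modify, fold, process and cross-link collagen gave 5 of 30 tested rising and 8 falling, or 16.7% and 26.7%, beside 9.62% and 9.76% of all genes. LOXL2, a lysyl oxidase that cross-links collagen IV, had 749, 876 and 908 CPM in the NC libraries and 557, 329.8 and 551 CPM in the SiCIRBP libraries, and its log2 fold change was -0.69 ± 0.073 (SE; edgeR, adjusted p = 0.00567). MIA3 (TANGO1), which loads procollagen into carriers at the endoplasmic reticulum, had 64.1, 77.9 and 88.7 CPM in the NC libraries and 48.3, 28.1 and 48.6 CPM in the SiCIRBP libraries, with a log2 fold change of -0.78 (edgeR, adjusted p = 0.00726). ADAMTS2, which removes the procollagen amino-terminal peptide, had 342, 385 and 378 CPM in the NC libraries and 260.0, 113 and 236 CPM in the SiCIRBP libraries, with -0.62 (edgeR, adjusted p = 0.00808). P4HA1, a catalytic subunit of prolyl 4-hydroxylase, had 123, 123 and 118 CPM in the NC libraries and 79.3, 67.7 and 65.2 CPM in the SiCIRBP libraries, with -0.73 (edgeR, adjusted p = 0.0113). In all of these genes every SiCIRBP library was below every NC library. The 5 that rose, LOXL4, P3H1, COLGALT1, PPIB and P4HB, had log2 fold changes from 0.31 to 1.65. LOXL4 had the highest, at 1.61 to 2.26 CPM in NC and 1.75 to 7.73 CPM in SiCIRBP, with overlap between groups. The others that rose had at most 0.65, with every SiCIRBP library above every NC library.

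Other basement membrane and matrix proteins gave 2 of 20 rising (FBN1 and ECM1), close to the 9.62% of all genes, and 5 falling, beside 9.76% of all genes. FBN1 had 865, 965 and 957 CPM in the NC libraries and 1311, 557 and 1158 CPM in the SiCIRBP libraries, SiCIRBP_2 being lowest. Its log2 fold change was 0.36 (edgeR, adjusted p = 0.0339) and 0.12 over all 6 libraries (edgeR, adjusted p = 0.811). For ECM1 the groups were apart, with 1.79 (edgeR, adjusted p = 0.0359) and 2.25 over all 6 (edgeR, adjusted p = 0.0885). The 4 with the smallest p were THBS2, NID1, THBS1 and HSPG2, which fell. NID1 (nidogen-1), which bridges laminin and collagen IV, had 319, 359 and 364 CPM in the NC libraries and 262, 162 and 248 CPM in the SiCIRBP libraries, with groups apart and a log2 fold change of -0.50 (edgeR, adjusted p = 0.0107). HSPG2 (perlecan), the heparan sulfate proteoglycan of basement membranes, had 61.9, 70.2 and 71.8 CPM in the NC libraries and 49.2, 58.2 and 49.9 CPM in the SiCIRBP libraries, with groups apart and -0.52 (edgeR, adjusted p = 0.0137). The thrombospondins THBS2 and THBS1, which modulate matrix assembly, had -0.50 (edgeR, adjusted p = 0.0106) and -0.70 (edgeR, adjusted p = 0.0114), and THBS1 reached 303 CPM in SiCIRBP_2, within the NC range of 257 to 315 CPM.

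Of the receptors for collagen and laminin, 3 of 15 fell and none rose, beside 9.76% and 9.62% of all genes. ITGA3, a laminin-binding integrin alpha chain, had 50.1, 65.5 and 70.4 CPM in the NC libraries and 30.2, 31.9 and 27.2 CPM in the SiCIRBP libraries, and its log2 fold change was -1.24 ± 0.10 (SE; edgeR, adjusted p = 0.00348). ITGA11, a collagen-binding integrin chain, had 303, 379 and 373 CPM in the NC libraries and 241, 129.9 and 246 CPM in the SiCIRBP libraries, with -0.63 (edgeR, adjusted p = 0.00627). DDR2, a receptor tyrosine kinase for fibrillar collagen, had 115, 144 and 157 CPM in the NC libraries and 105, 73.7 and 88.9 CPM in the SiCIRBP libraries, with -0.63 (edgeR, adjusted p = 0.0143). Groups were apart for ITGA3, ITGA11 and DDR2. Among 17 TGF-beta ligands, receptors and targets, which include drivers of collagen transcription, 3 fell and none rose, likewise beside 9.76% and 9.62% of all genes. CCN2, a matricellular target of TGF-beta, had 529.7, 1026 and 878 CPM in the NC libraries and 356, 282 and 237 CPM in the SiCIRBP libraries, and its log2 fold change was -1.68 ± 0.19 (SE; edgeR, adjusted p = 0.00605), while SMAD3 and SMAD2, signal transducers of the pathway, had -0.43 (edgeR, adjusted p = 0.0232) and -0.37 (edgeR, adjusted p = 0.030). Over all 6 libraries edgeR called no gene of these 4 lists, of which 16, 9, 3 and 6 genes had an unadjusted p under 0.05, in the order above (23.7% of all genes). DESeq2 over all 6 called 2 enzymes higher and 8 lower, 2 other matrix genes higher and 2 lower, 3 receptors lower and 3 TGF-beta genes lower, where it called 4.48% of all genes higher and 5.04% lower.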

How the data were processed

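The authors deposited, for each of 58884 genes and 6 libraries, an estimated count (not normalized, with fractions of reads) and a TPM value, in which the authors scaled counts by assigned transcript length and by library. The submitters' processing notes name fastp, HISAT, RSEM and hg38, and versions are not given in the sources used here. Deposited columns of the authors' own comparisons (fold changes and p-values) were not used. Groups and replicate numbers came from the titles in the labels. Of the identifiers, 58611 were found in GENCODE 29, which gave positions on GRCh38.

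After rounding, the estimated counts entered edgeR 4.0.16 under R 4.3.3 (TMM, filterByExpr, quasi-likelihood test, Benjamini-Hochberg over all genes tested). The 4 libraries the study tested gave the calls, and a fit of all 6 is given next to them. Standard errors were derived from each log2 fold change and its F statistic. CPM used TMM factors over 6 libraries. Single values were compared by exact permutation tests in scipy 1.17.1. DESeq2 1.42.0 and limma 3.58.1 on log2(TPM + 0.1) were alternatives. The edgeR procedure was tested on simulated data. With totals of 25726259 to 29919566, genes near 1 CPM rest on few counts, and counting error weighs on them.

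The genes and lists were chosen with earlier results of these data known, so their counts are descriptions. Genes given by library are those of the family with an adjusted p under 0.05 or a change of at least 2-fold over the 4 libraries. The 5 with the highest mean TPM, the partner chains and CIRBP are also given by library. In the lists of enzymes, other matrix proteins, receptors and TGF-beta genes, up to 4 genes with the smallest p are named. Of these, THBS1, THBS2, SMAD2 and SMAD3 are not given for every library. Of the marker lists, KRT14 and KRT8 are given by library. PDGFRA, NKX2-5 and TAGLN, which fell, and VWF, CD68 and SMTN, which rose, are not. LAMA2, LAMA3, LAMB2, LAMB3, COL3A1, COL8A1, COL12A1, COL15A1 and the genes that rose in lists of 5 or fewer were added after their values were seen. A gene of the family is not reported here by name, and the study's proteomics data were not analysed here.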

Additional observations from a re-analysis of the deposited data

How the results depend on the processing

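Of the collagen and laminin genes, 5 rose and 9 fell over the 4 libraries. RLE size factors gave 5 and 9 too (9.7% and 9.63% of all genes). So did a minimum of 10 counts in every library (1547 and 1524 of 14112 genes over all). DESeq2 over the same libraries gave 5 and 9 of 32 genes tested, with COL12A1 in place of LAMA1 (11.1% and 12.4% of all genes). Without a filter 9 rose and 13 fell (7.99% and 9.38% of all genes), and limma on TPM gave 1 and 5 (2.85% and 5.14%). Over all 6 libraries edgeR gave 0 and 0 (18 of 36 at an unadjusted p under 0.05, 23.7% of all genes), DESeq2 4 and 7, and edgeR with the replicate block 0 and 0 (18 of 36 unadjusted, 19.3% of all genes). Leaving out 1 library, the number that rose ran from 0 to 12 and the number that fell from 0 to 13. From the 4 libraries, none of these genes was called without NC_2 or NC_3 (15 of 36 unadjusted each, 19.8% and 16.9% of all genes), 12 rose and 12 fell without SiCIRBP_1 (21.2% and 23.1% of all genes), and 7 rose and 13 fell without SiCIRBP_3 (19.1% and 21.1%), where the lone library of a group is assumed to vary like the others. From the 6 libraries, 4 rose (COL5A1, COL7A1, COL13A1 and COL17A1) and 3 fell (COL4A2, COL14A1 and LAMA5) without SiCIRBP_2 (3.57% and 3.63% of all genes), and 0 were called without any other library (12 to 20 of 36 or 37 at an unadjusted p under 0.05, 11.2% to 27.8% of all genes). Fits with fewer libraries have fewer degrees of freedom, and the causes of the differences between these fits were not tested.

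Signs depended on the libraries for collagen VI. COL6A1 was -0.16 over all 6 libraries in edgeR and -0.15 in DESeq2, -0.23 with the replicate block, and -0.21, -0.14, -0.12, -0.28 and -0.35 without NC_1, NC_2, NC_3, SiCIRBP_1 and SiCIRBP_3. COL6A2 was -0.017 with the block and -0.021, -0.10 and -0.088 without NC_1, SiCIRBP_1 and SiCIRBP_3. COL6A3 was -0.13 over all 6 (-0.13 in DESeq2), -0.32 with the block, and -0.21, -0.10, -0.077, -0.13 and -0.62 without NC_1, NC_2, NC_3, SiCIRBP_1 and SiCIRBP_3. Over the 4 libraries COL6A3 was -0.20 without SiCIRBP_3 and 0.46 without SiCIRBP_1, while COL6A2 was positive in both. Over 6 libraries without SiCIRBP_3, COL1A1 was -0.050 and COL5A1 -0.017. The log2 difference of the summed TPM turned from -0.23 to 0.075 over the 4 libraries and 0.11 without SiCIRBP_2 (range over libraries left out -0.48 to 0.11), and that of COL6A3/COL6A1 to 0.036 and 0.067. Over all 6 libraries the counts of the other lists went to 0, from 5 rising and 8 falling enzymes, 2 and 5 other matrix genes, 3 receptors and 3 TGF-beta genes. Deviations from the group means of same-numbered libraries correlated at -0.118, 0.006 and -0.026 over 15217 genes. With 3 libraries a group, these values cannot tell whether the replicate numbers pair the libraries. Depth limits COL2A1, COL8A2, COL9A2 and COL21A1, at 5 to 29 counts.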

Other observations

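Because the deposited counts and TPM values come from the same assignment of reads, their ratio gives the transcript length that was assumed for a gene in a library, scaled here on genes with a single annotated transcript (718 to 764 genes per library). For LAMA2, the alpha chain of muscle laminin, this length was 774, 541 and 625 bases in the NC libraries and 1903, 180 and 1358 bases in the SiCIRBP libraries, against 9687 bases for its longest coding transcript. LAMA2 TPM therefore moved apart from LAMA2 counts. TPM was 12, 21.2 and 26.1 in NC and 5.92, 61.6 and 14.7 in SiCIRBP, while normalized counts were 6.51, 7.99 and 11 CPM and 8.21, 9.01 and 14.5 CPM. The log2 fold change over the 4 libraries was 0.25 on counts (edgeR, adjusted p = 0.566) and -1.32 on TPM (limma, adjusted p = 0.098).

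LAMA5 had an assumed length of 3954, 3572 and 4053 bases in the NC libraries and 2925, 2558 and 2685 bases in the SiCIRBP libraries, shorter in every SiCIRBP library, against 11426 bases for its longest coding transcript. For LAMB1 the lengths were 4070, 4385 and 4285 bases in NC and 3660, 3578 and 3815 bases in SiCIRBP. Any level of these chains that is read from TPM rests on these assigned lengths, and which transcripts were present was not tested.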
